A study of Mus musculus with 6 samples.

Results

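Imprinted growth genes are described here in liver endothelial cells (ECs) of young and very old mice. The 10 genes were chosen by name, as imprinted genes that are known to decline after juvenile growth. They are Igf2, Dlk1, Mest, Peg3 and Plagl1, which are expressed from the paternal copy, and H19, Meg3, Cdkn1c, Grb10 and Zim1, which are expressed from the maternal copy in most tissues outside the brain. All 10 have a row among the 24421 rows of the count table. CD31+CD45- cells were sorted from the livers of wild-type C57BL/6J mice, which the methods describe as female, and RNA was taken from 50000 cells per sample. The young group held 3 samples from mice of 10 weeks, and the aged group held 1 sample each from mice of 127, 131 and 136 weeks. No treatment or allele separated the ages. By the methods, gross findings such as tumors kept a mouse out of the study. Aged samples are given below in order of age, and young samples in order of replicate number. The methods call the 3 samples of each age independent, so the p-values measure the spread between these samples.

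In genomic imprinting one parental copy of a gene is silenced by marks, mainly DNA methylation, that are set in the germ line. Many imprinted genes act on growth. IGF2 is a growth factor of the fetus, and CDKN1C and GRB10 restrain growth, the former as an inhibitor of cyclin-dependent kinases and the latter as an adaptor that dampens insulin and IGF1 receptor signalling. In most rodent organs, liver included, the expression of Igf2, H19, Dlk1 and several related genes falls steeply in the weeks after birth. A comparison of 10 weeks with 127 to 136 weeks starts after most of that fall. The data carry no information on which parental copy was read, since the mice were inbred and the counts sum both copies.

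In these cells no member was called lower in the aged mice. Of the 10 genes, 7 passed the filter on low counts, 0.5 CPM or more in any 1 sample (CPM, counts scaled to library size with TMM factors). Of these 7 genes, 0 were called at an adjusted p below 0.05 with edgeR's quasi-likelihood test, as were 0 of all 14612 genes tested (percent called 0). By the same test 3 members had a log2 fold change (aged minus young) below 0, where 48.9% of all genes did, and the median over the 7 was 0.08, next to 0.01 over all genes. An unadjusted p below 0.05 was reached towards lower values by 0 members, against 4.32% of all genes, and towards higher values by 1 member, H19, against 8.32% of all genes. The aged samples lay wholly below the young samples for 0 members (8.33% of all genes) and wholly above them for 1 member, Igf2 (9.62% of all genes). DESeq2's Wald test also called 0 members, while it called 1.05% of the genes it adjusted as lower and 3.37% as higher. These genes were named as a group that declines after youth, and between the ages sampled here no such decline was called for the 7 tested. Since edgeR called 0 of all genes, its 0 calls do not set the members apart. Dlk1, Meg3 and Zim1 were not tested. With 3 samples against 3, the two-sided exact permutation test of a single gene cannot give a p below 0.1. In bulk RNA, fewer cells of a type and less RNA per cell cannot be told apart.

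The sequencing depth ran from 23001556 to 31651817 counts per sample, so that 3 counts, the floor used here, stood at 0.0948 to 0.130 CPM before the TMM factor. The floor covers counting error only. The endothelial gene Pecam1, which encodes CD31, had a CPM of 1369 to 1589 in the young and 1366 to 1635 in the aged samples. The sum over 8 endothelial markers was 13920 to 15040 CPM in the young and 9940 to 12920 CPM in the aged samples, which all lay lower. Of the 8, 6 had a log2 fold change below 0 and 0 were called by edgeR (1, Kdr, at an unadjusted p below 0.05), and the ages did not overlap for Kdr (log2 fold change -0.65, adjusted p = 0.368, edgeR), Tek (-0.38, adjusted p = 0.568, edgeR) and Eng (-0.33, adjusted p = 0.550, edgeR). Over all genes, 8.33% lay wholly lower in the aged samples and 4.32% were lower at an unadjusted p below 0.05 (edgeR). Of 8 sinusoidal markers 7 had a log2 fold change below 0, 6 lay wholly lower and 6 had an unadjusted p below 0.05 (edgeR, 0 adjusted). The summed CPM of the 8 was 15490 to 17120 in young and 6024 to 10810 in aged samples. All 10 leukocyte markers were detected and had a log2 fold change above 0 (7 at an unadjusted p below 0.05 in edgeR, 0 adjusted). Their sum was 42.0 to 77.6 CPM in the young, while the aged samples stood at 199.7, 39.4 and 577.9 CPM. The T cell gene Cd3e was at 0 in young replicate 3 and the hemoglobin genes Hbb-b1 and Hba-a1 had 0 counts throughout, although the FPKM table lists them above 0 (means of 64.1 and 129.2 in the young). Summed CPM in young and aged samples was 129 to 189 and 68.9 to 92.7 for 11 of 12 hepatocyte markers. All 10 hepatocyte markers tested had a log2 fold change below 0, 6 lay wholly lower and 5 had an unadjusted p below 0.05 (edgeR, 0 adjusted). Summed CPM was 201 to 334 and 369 to 564 for 7 mesothelial markers, mostly Gpm6a. Of 6 mesothelial markers tested, 4 had a log2 fold change below 0, while Gpm6a and Krt19 were above 0, and the median was -1.81. For 6 cholangiocyte markers the sum was 88.1 to 104.9 and 189 to 238 CPM, mostly Spp1 (77.4 to 96.2 and 161 to 206 CPM). Spp1 and Sox9 lay wholly higher in the aged samples (9.62% of all genes), and the ages overlapped for the other cholangiocyte markers. For 4 erythroid markers it was 4.42 to 10.3 and 2.76 to 12.4 CPM. Lars2 and Rn45s, rows known to collect ribosomal RNA reads, took 1.29% of the counts of young replicate 3, 0.960% at 127 weeks and 4.68% to 5.53% elsewhere. The first 2 libraries are called the rRNA-poor pair, and log2 differences (aged minus young) are given within it and within the other 4 libraries.

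H19 and Igf2 lie next to each other on chromosome 7 and share enhancers and 1 imprinting control region. H19 (149761434 to 149764048 of mm9, minus strand) makes a long non-coding RNA and Igf2 (149836673 to 149852721, minus strand) the growth factor. Each transcript also carries a microRNA. They are shown because a change of the host RNA need not be a change of the microRNA, which these libraries did not measure: the count rows of Mir675 and Mir483 held 0 reads in all 6 samples. The mature sequences from RefSeq (GRCm38.p6, chromosome 7, minus strand) have bases 2 to 8, the seed, in capitals, and the 4 seeds differ.
mmu-miR-675-5p, from H19: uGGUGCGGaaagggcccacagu
mmu-miR-675-3p, from H19: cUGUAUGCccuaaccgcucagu
mmu-miR-483-5p, from Igf2: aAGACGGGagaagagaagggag
mmu-miR-483-3p, from Igf2: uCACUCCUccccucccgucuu

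H19 stood at 4.80, 5.51 and 1.36 CPM in the young samples, against 13.6, 4.36 and 15.4 CPM in the aged samples. The 127- and 136-week samples were above every young sample, while the 131-week sample lay among them. The means were 3.89 ± 2.22 and 11.1 ± 5.95 CPM (SD, n = 3 each), a ratio of 2.87. The log2 fold change was 1.52 (SE 0.63, 95% interval 0.06 to 2.99, unadjusted p = 0.0435, adjusted p = 0.379, edgeR), so the difference was not called. Leaving out young replicate 1, young replicate 3, the 127-week or the 136-week sample each took the unadjusted p above 0.05, and the log2 fold change was lowest, at 1.11 (adjusted p = 0.495, edgeR), without young replicate 3. The log2 difference was 3.33 in the rRNA-poor pair and 0.94 among the other 4 libraries.

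Igf2 stood at 13.8, 14.3 and 2.84 CPM in the young samples. The aged samples stood at 15.3, 19.9 and 67.9 CPM. The ages did not overlap, but the 127-week sample exceeded young replicate 2 by little, and the 136-week sample stood far above all others. The means were 10.3 ± 6.47 and 34.4 ± 29.1 CPM (SD, n = 3 each), a ratio of 3.34. The log2 fold change was 1.74 (SE 0.74, 95% interval -0.004 to 3.49, unadjusted p = 0.0504, adjusted p = 0.397, edgeR), and it was 0.78 (adjusted p = 0.868, edgeR) without the 136-week sample. The rRNA-poor pair gave a log2 difference of 2.43, and the other 4 libraries gave 1.65.

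Young replicate 3 was the lowest of the 6 samples for both genes, and the 136-week sample was the highest. The summed CPM of 15 stellate and mesenchymal markers had the same extremes, with 434.6, 391.9 and 169 for the young and 417.6, 245.8 and 726.6 for the aged samples. All 15 were detected and 9 had a log2 fold change above 0. In the sum those extremes rested on Reln (69.9 to 181 CPM in young, 109 to 495 in aged samples), which ECs can also express. The other 14 markers summed to 279.6, 211 and 99.1 CPM in the young and 66.6, 137 and 231 CPM in the aged samples. That sum was lowest at 127 weeks and highest in young replicate 1. Taken singly, Pdgfrb and Pdgfra had the same extremes as Reln, and no other marker of the list had both. Pdgfrb had 6.09 CPM in young replicate 3 and 18.2 CPM at 136 weeks, and Pdgfra 0.284 and 4.75 CPM. Col1a1 had 31.7, 19.1 and 3.38 CPM in the young and 1.51, 3.58 and 17.5 CPM in the aged samples. The leukocyte sum was also highest at 136 weeks, but it was lowest at 131 weeks (39.4 CPM). Young replicate 3 had the highest leukocyte sum of the young (77.6 CPM). The part of these cells in the H19 and Igf2 values was not tested.

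**Figure D1:**
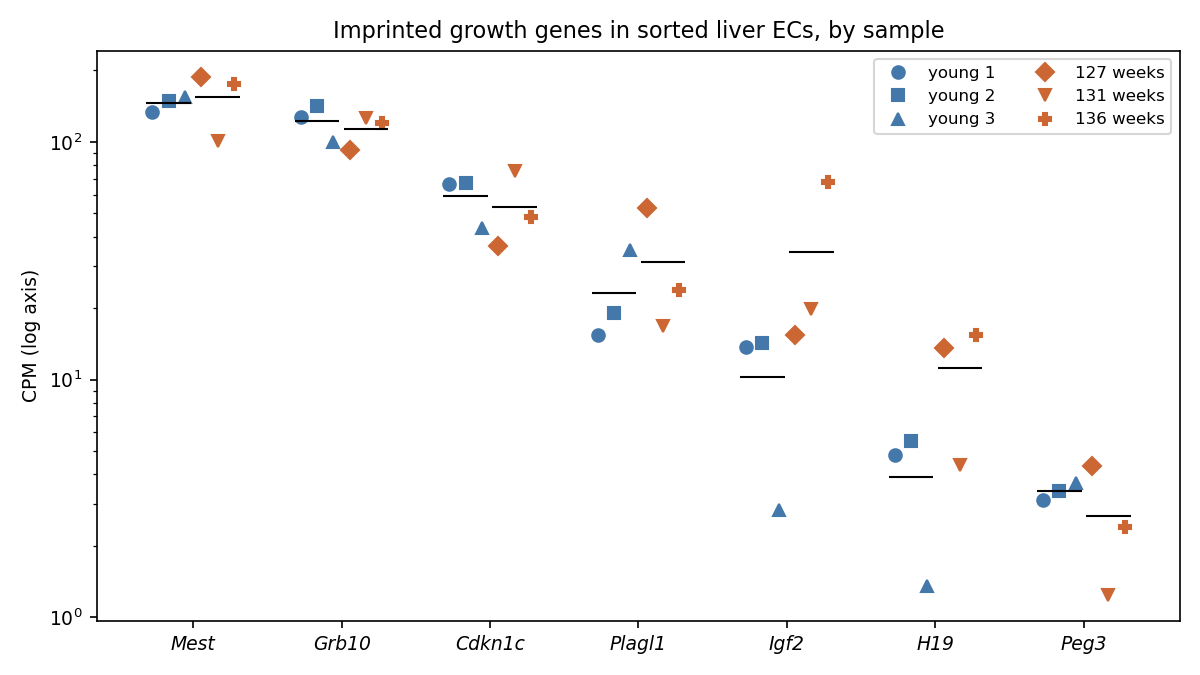
CPM (log axis) of the 7 members past the filter on low counts in each of the 6 samples, with blue symbols for the 3 young and orange symbols for the 3 aged samples and a black bar at each group's mean. The ages are interleaved for every gene except Igf2, whose 136-week sample lies at 67.9 CPM and whose young replicate 3 lies at 2.84 CPM.

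Mest (chromosome 6, 30673547 to 30698457 of mm9, plus strand), which encodes a protein of the alpha/beta hydrolase fold, was the member with the highest level per length in the young, at an FPKM of 62.0 ± 4.91 (SD, n = 3). Its young samples stood at 134, 149 and 155 CPM and its aged samples at 188, 101 and 176 CPM. The aged samples lay on both sides of the young ones. The log2 fold change was 0.08 (SE 0.24, 95% interval -0.48 to 0.64, adjusted p = 0.934, edgeR), and turned to -0.076 without the 127-week and to -0.014 without the 136-week sample. The spread of the aged samples (SD 47.3 CPM) was wider than that of the young (SD 10.9 CPM).

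Peg3 (chromosome 7, 6656603 to 6683132, minus strand) and Plagl1 (chromosome 10, 12810497 to 12851500, plus strand) encode zinc finger proteins that act in the nucleus, and PLAGL1 is known as an activator of other imprinted genes, H19 and Igf2 among them. Peg3 stood at 3.13, 3.38 and 3.66 CPM in the young and at 4.33, 1.24 and 2.40 CPM in the aged samples. The young samples lay within the range of the aged ones, and the log2 fold change was -0.35 (SE 0.48, 95% interval -1.46 to 0.77, adjusted p = 0.829, edgeR). Without the 127-week sample it was -0.89, and without the 131-week sample -0.01. The log2 difference was 0.24 in the rRNA-poor pair, opposite in sign to the -0.84 of the other 4 libraries.

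Plagl1 stood at 15.4, 19.04 and 35.04 CPM in the young and at 52.6, 16.8 and 23.9 CPM in the aged samples. Its highest values were those of the rRNA-poor pair, 1 young and 1 aged. The log2 fold change was 0.42 (SE 0.47, 95% interval -0.68 to 1.53, adjusted p = 0.776, edgeR) and turned to -0.18 without the 127-week sample. Inside the rRNA-poor pair the aged sample was higher by 0.59 on the log2 scale, and among the other libraries by 0.24.

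The promoters of Mest, Peg3 and Plagl1 are known to carry the methylation imprint on the silent maternal copy, whereas the imprint that governs Igf2 lies upstream of H19. Methylation was not measured here. RefSeq (GRCm38.p6) had promoter entries for 8 of the 10 members, with 15 starts in all, each covering 250 bases before and 50 bases after a start. The windows are shown 5′ to 3′ on the gene's strand, with CG dinucleotides, the sites that are methylated, in capitals. Of 3 Mest starts, that at chr6:30737800-30738099 held 17 CG, Peg3 at chr7:6730370-6730669 held 13, Plagl1 at chr10:13090582-13090881 held 26 and the last of the 4 Igf2 starts, at chr7:142657447-142657746, held 7. The median of all 32851 promoter windows was 7, and 31.4%, 37.9%, 16.9% and 52.1% of them held at least as many as the Mest, Peg3, Plagl1 and Igf2 windows. The 4 Igf2 starts held 2, 14, 24 and 7 CG in transcript order, and the gene counts sum over all starts.
Mest: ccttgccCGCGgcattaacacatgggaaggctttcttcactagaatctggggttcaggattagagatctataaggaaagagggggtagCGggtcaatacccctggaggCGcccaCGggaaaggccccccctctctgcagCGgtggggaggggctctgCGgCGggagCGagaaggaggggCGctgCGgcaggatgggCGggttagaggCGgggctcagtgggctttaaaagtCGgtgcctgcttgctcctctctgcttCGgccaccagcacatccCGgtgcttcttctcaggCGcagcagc
Peg3: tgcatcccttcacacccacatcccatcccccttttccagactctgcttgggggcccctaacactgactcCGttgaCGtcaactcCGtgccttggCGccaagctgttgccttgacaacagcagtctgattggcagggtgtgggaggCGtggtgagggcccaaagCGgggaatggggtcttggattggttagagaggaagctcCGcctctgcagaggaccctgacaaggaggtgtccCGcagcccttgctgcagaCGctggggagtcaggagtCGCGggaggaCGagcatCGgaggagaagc
Plagl1: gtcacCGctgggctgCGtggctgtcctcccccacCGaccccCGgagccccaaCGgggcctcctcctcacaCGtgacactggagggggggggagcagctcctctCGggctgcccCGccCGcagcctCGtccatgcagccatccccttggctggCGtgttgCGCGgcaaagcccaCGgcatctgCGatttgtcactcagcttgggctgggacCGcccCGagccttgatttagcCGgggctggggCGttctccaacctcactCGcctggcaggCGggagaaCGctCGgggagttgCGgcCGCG
Igf2: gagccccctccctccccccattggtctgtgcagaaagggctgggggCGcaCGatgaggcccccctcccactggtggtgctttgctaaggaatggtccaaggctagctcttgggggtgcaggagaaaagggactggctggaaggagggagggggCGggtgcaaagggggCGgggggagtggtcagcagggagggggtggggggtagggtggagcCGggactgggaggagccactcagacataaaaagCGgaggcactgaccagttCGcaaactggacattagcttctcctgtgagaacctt

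Cdkn1c (chromosome 7, 150644255 to 150646955 of mm9, minus strand) stood at 66.2, 67.4 and 43.3 CPM in the young and at 36.4, 75.6 and 48.2 CPM in the aged samples. The ages overlapped, and the highest and the lowest sample were both aged. The log2 fold change was -0.14 (SE 0.30, 95% interval -0.84 to 0.55, adjusted p = 0.899, edgeR), and 0.074 without the 127-week sample.

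Grb10 (chromosome 11, 11830511 to 11938686, minus strand) stood at 127, 141 and 99.5 CPM in the young and at 92.4, 127 and 120.4 CPM in the aged samples, which overlapped. The log2 fold change was -0.12 (SE 0.19, 95% interval -0.56 to 0.33, adjusted p = 0.868, edgeR), and 0.016 without the 127-week sample. A log2 fold change of -1 lay below the 95% interval of each tested member except Peg3.

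**Figure D2:**
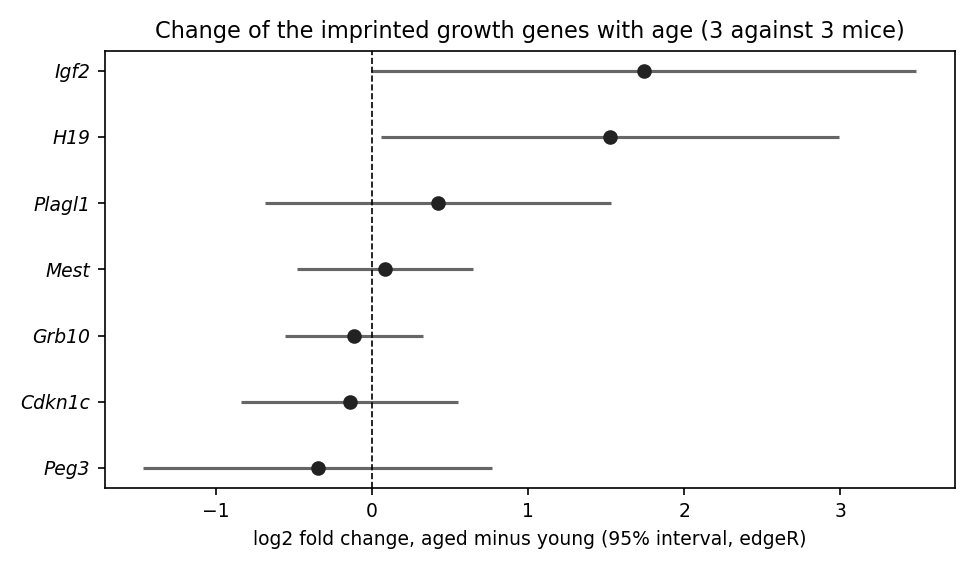
Log2 fold change (aged minus young, edgeR) of the 7 members past the filter, with points for the estimate and lines for the 95% interval from 3 young and 3 aged samples. The estimates run from -0.35 for Peg3 to 1.74 for Igf2, and the lines cross 0 for each gene except H19.

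The members that differed little by age still differed between libraries. The 127-week sample had the highest CPM of the 6 samples for Mest, Peg3 and Plagl1 and the lowest for Cdkn1c and Grb10. The 131-week sample had the lowest CPM for Mest and Peg3 and the highest for Cdkn1c. Among the young, replicate 3, the other library of the rRNA-poor pair, was likewise highest for Mest, Peg3 and Plagl1 and lowest for Cdkn1c and Grb10. Igf2 was also lowest of its age group in both libraries of the pair, at 2.84 CPM in young replicate 3 and 15.3 CPM at 127 weeks. H19 did not follow the split. It was lowest of the young in replicate 3 (1.36 CPM), but at 127 weeks (13.6 CPM) it was above all young samples and the 131-week sample. The pattern across the pair was noticed in the data, and its relation to the ribosomal RNA share was not tested.

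**Figure D3:**
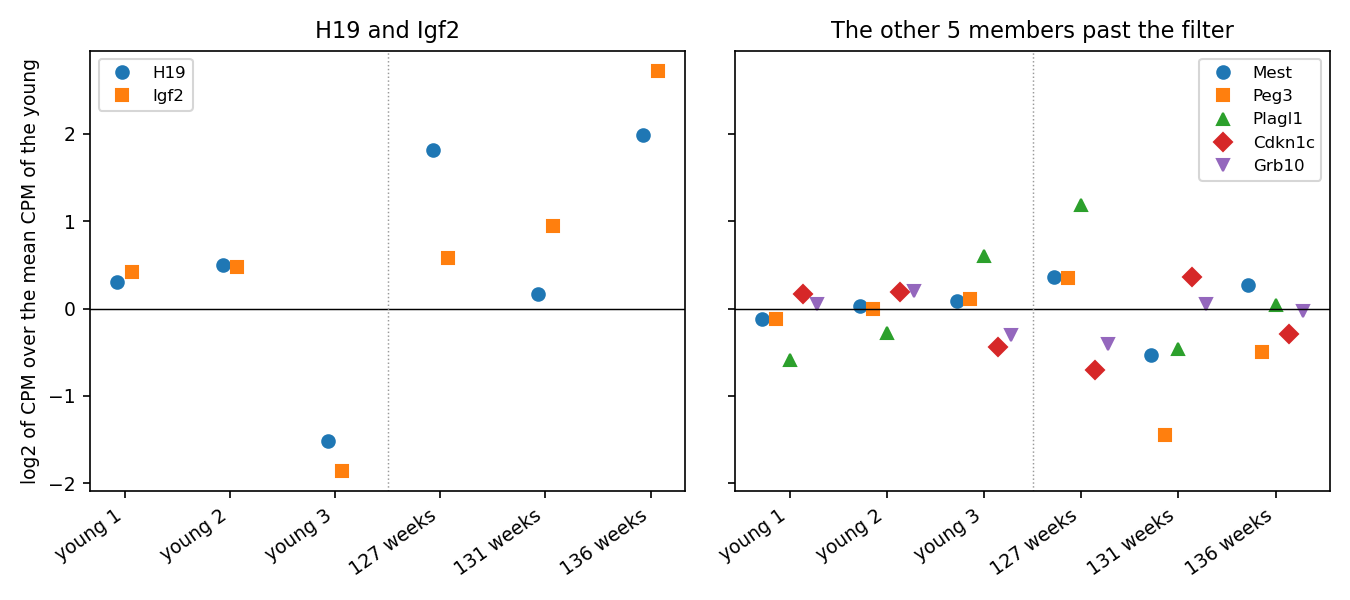
Log2 of the CPM in each sample over the mean CPM of the young samples, for H19 and Igf2 on the left and the other 5 members past the filter on the right, with 1 symbol per gene and a dotted line between young and aged samples. H19 and Igf2 are lowest in young replicate 3 and highest at 136 weeks, whereas Plagl1, Mest and Peg3 are highest at 127 weeks, where Cdkn1c and Grb10 are lowest.

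Dlk1, Meg3 and Zim1 were at or under the floor of 3 counts in every sample and were not tested. Dlk1 (chromosome 12, 110691033 to 110701546 of mm9, plus strand), a membrane protein of the Notch ligand family that marks fetal liver progenitors, had 1, 1 and 0 counts in the young and 0 in all aged samples. Meg3 (chromosome 12, 110779211 to 110809936, plus strand), the long non-coding RNA from the maternal copy of the same domain, had 1, 0 and 1 counts in the young and 0, 0 and 3 in the aged samples. Zim1 (chromosome 7, 6628154 to 6649161, minus strand), a zinc finger gene beside Peg3, had 0 counts in every sample. No fold was computed for these genes, and a decline before 10 weeks lies outside the ages sampled.

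Per length, the order of the tested members in the young was Mest, Cdkn1c (FPKM 31.8 ± 7.97), Grb10 (24.5 ± 4.18), Plagl1 (4.51 ± 2.06), Igf2 (2.89 ± 1.78), H19 (1.95 ± 1.08) and Peg3 (0.525 ± 0.0448; SD, n = 3 each). The young samples of Cdkn1c overlapped with those of Grb10, those of Plagl1 with Igf2 and those of Igf2 with H19, while the other neighbours in the order were apart. In the aged samples Igf2 stood at an FPKM of 9.58 ± 8.07, H19 at 5.66 ± 3.00 and Plagl1 at 6.01 ± 3.72 (SD, n = 3 each), and these 3 also overlapped. Among the 14612 genes tested, the young FPKM of Mest was at the 89.8th percentile and that of H19 at the 31.1st.

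The partners of the members within their imprinted domains were compared next. Of 30 listed symbols for partners, 28 had a row, 11 of these were at 0 in every sample and 11 passed the filter. Imprinting of the partners in adult liver ECs could not be read from these data. None of the 11 was called, 6 had a log2 fold change below 0 and 5 above, and the median was -0.001. In the domain of Dlk1 and Meg3, Rtl1, Mirg and Begain were at 0, and Rian had 6 counts and Dio3 13 counts over all samples. Kcnq1, a potassium channel gene in the domain of Cdkn1c, had 88.9, 78.7 and 81.0 CPM in the young and 30.8, 70.3 and 31.0 CPM in the aged samples. Its aged samples all lay below the young ones (log2 fold change -0.91, SE 0.33, unadjusted p = 0.0258, adjusted p = 0.340, edgeR). Slc22a18, a transporter gene of the same domain, was higher in each aged sample, at 1.85 ± 0.673 CPM in young and 3.19 ± 0.257 CPM in aged ECs (SD, n = 3 each, log2 fold change 0.79, adjusted p = 0.454, edgeR). Neither change was called. Of the 11 partners tested, 1 lay wholly lower in the aged samples (8.33% of all genes) and 1 wholly higher (9.62% of all genes). Of 14 listed symbols for flanking genes outside imprinting control, 13 had a row and 12 were tested. Among the 12, 8 had a log2 fold change below 0, and the median was -0.08. Of these, only Wars, which encodes a tRNA synthetase and lies in the neighbourhood of Dlk1, had ages that did not overlap (log2 fold change -0.20, adjusted p = 0.597, edgeR). It lay wholly lower in the aged samples, as did 8.33% of all genes.

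Of 40 listed symbols for other imprinted genes, 39 had a row and 29 were tested. Whether each gene is imprinted in adult liver ECs could not be read from these data. Their median log2 fold change was 0.03, with 14 below and 15 above 0, and 0 were called. Sgce, which encodes epsilon-sarcoglycan, had 125, 129 and 101 CPM in the young and 70.8, 80.8 and 62.2 CPM in the aged samples, which all lay lower (log2 fold change -0.73, SE 0.16, unadjusted p = 0.00254, adjusted p = 0.233, edgeR). Ndn, which encodes necdin, an inhibitor of cell growth, had 5.92, 4.65 and 4.64 CPM in the young and 8.46, 7.82 and 12.1 CPM in the aged samples, which all lay higher (log2 fold change 0.90, SE 0.26, unadjusted p = 0.0103, adjusted p = 0.267, edgeR). H13 and Jade1 also had aged samples above all young samples, H13 by a log2 fold change of 0.14 (adjusted p = 0.720, edgeR) and Jade1 by 0.21 (adjusted p = 0.552, edgeR). Of the 29 tested, 1 lay wholly lower in the aged samples (8.33% of all genes) and 3 wholly higher (9.62% of all genes).

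**Figure D4:**
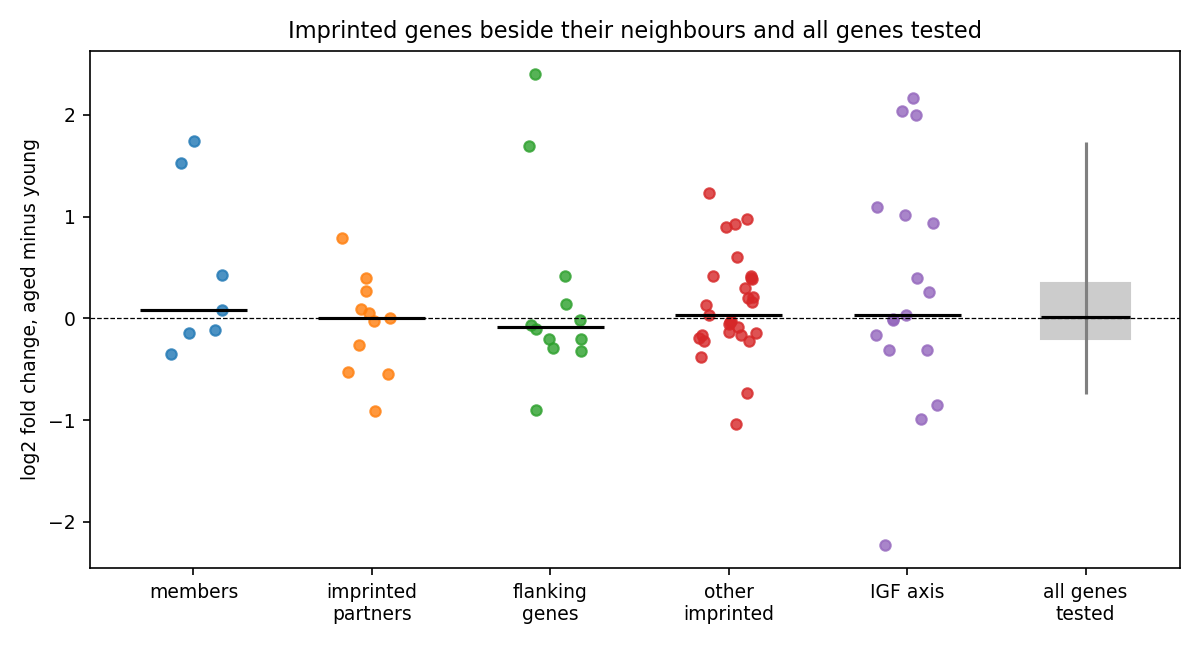
Log2 fold change (aged minus young) of each tested gene in 5 lists, with a black bar at each median, beside all 14612 genes tested (box from the 25th to the 75th percentile, line from the 5th to the 95th). The medians lie between -0.08 for the flanking genes and 0.08 for the members.

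Of the 19 genes listed for the IGF axis, 17 were tested, with a median log2 fold change of 0.03 and 0 calls. Among the 19 are genes for receptors and their relays, for IGF binding proteins and for proteins that bind Igf2 mRNA. Igf2r, an imprinted receptor that clears IGF2, had 30.6 ± 3.05 CPM in young ECs, a log2 fold change of 0.40 and overlapping ages (adjusted p = 0.482, edgeR). Igf1r, the signalling receptor, had a log2 fold change of -0.01 (adjusted p = 0.990, edgeR). Igf2bp2, whose protein binds Igf2 mRNA, had 2.08, 3.02 and 3.63 CPM in the young and 0.481, 0.933 and 0.447 CPM in the aged samples, a direction opposite to that of Igf2 itself (log2 fold change -2.22, SE 0.49, adjusted p = 0.233, edgeR). Among the genes for IGF binding proteins, Igfbp7 was lower in each aged sample (3241 ± 219 CPM in young, 1796 ± 316 in aged ECs, log2 fold change -0.85, adjusted p = 0.235, edgeR) and Igfbp5 higher in each (91.0 ± 39.4 CPM in young, 363 ± 261 in aged ECs, log2 fold change 2.00, adjusted p = 0.256, edgeR; SD, n = 3 each). Igfbp5 shared with Igf2 its lowest sample, young replicate 3 at 45.6 CPM, and its highest, the 136-week sample at 660.3 CPM. Irs2, a relay of the receptors, and Pappa, a protease that cleaves IGF binding proteins, were also higher in each aged sample, Irs2 by a log2 fold change of 2.03 (adjusted p = 0.215, edgeR) and Pappa by 2.17 (adjusted p = 0.268, edgeR). None of these 5 genes was called. Of the 17 tested, 2 lay wholly lower in the aged samples (8.33% of all genes) and 3 wholly higher (9.62% of all genes).

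Genes whose levels followed the 2 most abundant members by CPM, Mest and Grb10, were named by Pearson's r of log2(CPM + 1) over the 6 samples, among 12454 genes with a mean CPM of at least 1. For Mest they were Dhx15 (r = 0.997), Irgm2 (r = 0.989) and Wdr74 (r = 0.989), and for Grb10 Slc39a9 (r = 0.998), Sdhaf4 (r = 0.994) and Psmd13 (r = 0.991). The highest values among so many genes and so few samples are a description. The samples differ in depth and library cluster, and all genes share these differences.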

How the data were processed

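CD31+CD45- liver ECs were profiled by RNA-seq with single-end 75-base reads, in 3 samples from young and 3 from aged mice. Per the labels, the authors called bases with CASAVA 1.8.2, mapped reads to mm9 with TopHat2 2.1.0 and deposited raw counts for 24421 gene symbols. A second deposited table holds FPKM from Cuffnorm 2.2.1 (24346 symbols). The counting program, its annotation and its strand setting are not given in the sources used here, so overlapping and antisense genes are uncertain.

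The 14612 genes that reached 0.5 CPM in any 1 sample entered the main comparison. After TMM normalization, edgeR 4.0.16 (R 4.3.3) gave quasi-likelihood F tests, and p-values were adjusted by Benjamini and Hochberg's method over all 14612 genes (threshold 0.05). SE is the log2 fold change over the square root of F. DESeq2 (1.42.0) and limma (3.58.1) served as alternatives, beside other normalizations, filters, a term for the library cluster and the removal of each sample. The code was tested on simulated data. CPM values are counts over the library size times its TMM factor. No pair of replicates was a library deposited under 2 names (chi-square per degree of freedom at least 20.2).

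The members and lists were chosen with earlier results of these data known. Named genes are the 10 members, from every other list up to 6 genes with the smallest p among those whose ages do not overlap (or, where none, the 2 with the highest mean CPM), and the 3 genes most like each of the 2 most abundant members. Igf1r, Igf2r, Afp, Lin28a, Lin28b and the silent or nearly silent partners of Dlk1 and Meg3 fall outside that rule and were named after their values were seen. Marker genes are named where their values stand beside a result, also chosen after their values were seen. Marker lists were endothelial, sinusoidal, hepatocyte, stellate and mesenchymal, mesothelial, cholangiocyte, leukocyte and erythroid. Positions are from the GENCODE annotation of mm9, sequences from RefSeq (GRCm38.p6), and the builds were not mixed.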

Additional observations from a re-analysis of the deposited data

How the results depend on the processing

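Over 15 alternatives, the log2 fold changes of the 7 tested members gave 105 values, of which 100 kept their direction and 0 passed an adjusted p of 0.05. The 5 that turned came from fits without 1 aged sample, 4 without the 127-week sample (Mest, Plagl1, Cdkn1c, Grb10) and 1 without the 136-week sample (Mest). Over the 6 fits that left out 1 sample each, the log2 fold change ran from -0.076 to 0.32 for Mest (-0.076 without the 127-week and -0.014 without the 136-week sample), from -0.18 to 0.85 for Plagl1, from -0.48 to 0.074 for Cdkn1c, from -0.24 to 0.016 for Grb10, from -0.89 to -0.01 for Peg3, from 0.78 (without the 136-week sample) to 2.1 for Igf2 and from 1.11 to 1.91 for H19. The adjusted p of Igf2 lay between 0.134 and 0.868 under the alternatives, and that of H19 between 0.162 and 0.753. The lowest Igf2 value was that of DESeq2's Wald test.

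The number of members higher at an unadjusted p below 0.05, which was 1, was 2 with DESeq2's Wald test, without a filter other than 1 count and with the filter raised to 1 CPM in 3 samples, and 0 with limma-voom and with limma on log2(FPKM + 0.1) or log2(FPKM + 1). It ran from 0 to 2 with 1 sample left out (0 without young replicate 1, young replicate 3 or the 136-week sample, 2 without the 131-week sample). With a term for the library cluster the count stayed at 1 but the gene was Igf2 (unadjusted p = 0.00762, adjusted p = 0.212, edgeR) and not H19 (unadjusted p = 0.0525, adjusted p = 0.303, edgeR).

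Among all genes, edgeR called 0 lower and 0 higher, while 631 and 1216 had an unadjusted p below 0.05. DESeq2's Wald test called 150 lower and 480 higher, limma-voom with sample quality weights 2 and 13, the fit with no filter 1 and 3, and the fit with a term for the library cluster 1 and 1. Limma on log2(FPKM + 0.1) called 1 higher, and the fits without 1 sample called from 0 to 1 higher (1 without the 131-week sample). The cause was not tested. No alternative moved the median of all genes beyond 0.0394 on the log2 scale. No paired analysis was possible because the young and aged samples came from different mice and the labels link none of them. With 3 samples a group, the wide intervals of H19, Igf2, Peg3 and Plagl1 limit what could be seen.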

Other observations

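Genes of early growth that are not imprinted were also compared. Of 14 listed genes, 10 were tested, 7 had a log2 fold change above 0 and 0 were called by edgeR. Sox4, which encodes a transcription factor of progenitor cells, had 44.8, 30.9 and 33.2 CPM in the young and 72.3, 60.5 and 93.5 CPM in the aged samples (log2 fold change 1.05, SE 0.22, adjusted p = 0.207, edgeR). Mycn, a relative of Myc, had 3.61, 2.80 and 2.40 CPM in the young and 4.09, 5.56 and 9.58 CPM in the aged samples (log2 fold change 1.13, adjusted p = 0.332, edgeR). Both were higher in each aged sample. Igf2bp2, also in this list, was lower in each aged sample and had the list's largest difference (log2 fold change -2.22, SE 0.49, adjusted p = 0.233, edgeR). Of the 10 tested, 1 lay wholly lower in the aged samples (8.33% of all genes) and 2 wholly higher (9.62% of all genes). The fetal liver gene Afp had 10 counts over all samples, and Lin28a and Lin28b had 0.

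Of 8 relatives of the members that are not imprinted, 7 were tested and 0 were called. Plag1, the relative of Plagl1, had 0.290 ± 0.171 CPM in young and 1.18 ± 0.434 CPM in aged ECs (SD, n = 3 each, log2 fold change 1.99, adjusted p = 0.325, edgeR). Grb14, the relative of Grb10, had 0.984 ± 0.392 and 3.71 ± 1.07 CPM (SD, n = 3 each, log2 fold change 1.92, adjusted p = 0.237, edgeR). Cdkn1a, the relative of Cdkn1c that p53 induces, had 349 ± 36.0 and 514 ± 178 CPM (SD, n = 3 each, log2 fold change 0.56, adjusted p = 0.422, edgeR). For these 3 of the 7 genes tested each aged sample was higher than each young sample, as for 9.62% of all genes. Of 9 genes that keep imprints, 0 had ages that did not overlap. Over all genes, 8.33% lay wholly lower and 9.62% wholly higher in the aged samples. The most abundant were Trim28 and Zfp445, with log2 fold changes of 0.19 and -0.15. Of 12 proliferation genes, 8 had a log2 fold change below 0, with a median of -0.38 and overlapping ages for all 12. The most abundant were Cdk1, with a log2 fold change of -0.51 (adjusted p = 0.730, edgeR), and Top2a, with -0.65 (adjusted p = 0.682, edgeR).

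The deposited tables differ for the microRNA rows inside the members. Mir675, within H19, is listed at an FPKM of 665 in young replicate 2 and at 0 in the other 5 samples, while its count is 0 in all 6. Mir335, within Mest, is listed at an FPKM of 60.2 in the 131-week sample with 2 counts, and at 0 in young replicate 3, which also has 2 counts. The FPKM values of such short rows were not used.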
